A study of Mus musculus with 6 samples.

Results

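Most of the genes described here encode protein parts of the spliceosome: the Sm and LSM proteins of the small nuclear ribonucleoproteins (snRNPs), the subunits of the U1 and U2 snRNPs, the U2AF dimer, the PRPF factors and the SR proteins. All the genes were chosen by name, as all non-control array probes whose gene name begins with Snrp, Sf3a, Sf3b, Srsf or Sfrs, or is an Lsm or Prpf gene with a number, U2af1 or U2af2. That rule, which uses no measured value, took 98 of the 55681 probes on the array, for 59 genes. All 59 are called splicing factor genes here for short. The rule also took Lsm1, of a cytoplasmic ring, and 5 LSM genes that serve other particles (Lsm10, Lsm11, Lsm12, Lsm14a and Lsm14b). Some genes of the same families fell outside it, such as Snrnp70, and Lsm8 and Sf3b6, which the array lists under other names.

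Total RNA came from G1E-ER-GATA-1 cells, a mouse erythroid precursor line that has no GATA-1 of its own and carries GATA-1 fused to an estrogen receptor domain. The tested cells received Foxo3 siRNA and the control cells nontargeting siRNA, each nucleofected at 0 h and once more at 24 h. Every sample, controls included, was exposed to estradiol for the last 24 h, which switches the fusion on and starts red cell maturation, and RNA was taken at 48 h. Each siRNA had 3 arrays, each hybridised with the Cy3-labelled RNA of 1 sample on a 1-colour Agilent array. All samples come from 1 line, and nothing in the labels says that they were separate cultures, so a p-value here reflects the scatter of these samples alone, which may be technical.

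The spliceosome removes introns from pre-mRNA. The U1 snRNP marks the start of an intron, U2AF and the U2 snRNP mark its end and branch point, and the U4, U5 and U6 snRNPs then join and form the catalytic centre. SR proteins, named for their arginine and serine repeats, bind exons, recruit these snRNPs and influence which exons are kept. Maturing red cell precursors change the splicing of many transcripts, and SF3B1, SRSF2 and U2AF1 are among the genes mutated in human myelodysplastic syndromes, which impair red cell production.

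The Foxo3 probe designed on the RefSeq transcript read −0.46, −1.29 and −1.89 on the 3 Foxo3 siRNA arrays, against 1.23, 1.28 and 1.12 on the 3 nontargeting arrays. These and all levels given here are log2 signals minus the 75th percentile of their array. The difference was −2.42. The probe was above background on 2 of 3 Foxo3 siRNA arrays and on all 3 nontargeting arrays, so it was kept through the group in which it read higher. Its difference is therefore given as a description with no test. The other kept Foxo3 probe, designed on a separate cDNA, differed by 0.25 (limma adjusted p = 0.258). No spot was saturated, and 30619, 37532 and 20343 spots were well above background with Foxo3 siRNA, against 33513, 31611 and 32182 with nontargeting siRNA. Foxo3 siRNA replicate 3, the array with the fewest such spots, had 50.2% of its spots filled with surrogate values, against 16.7% to 29.3% on the other 5 arrays. The number of arrays limits the precision. Of 10 listed erythroid markers, 9 were tested under their listed names, 8 of them above background on all 6 arrays. Their summed scaled signal was 2660 to 3440 with Foxo3 siRNA, against 3733 to 4118 with nontargeting siRNA. Hba-a1 and Alas2 had the largest signals in that sum, and differed by −0.46 and −0.41 without passing the test. Of the 9 markers 1 was higher by limma, Tfrc at 0.60 (adjusted p = 0.0124), and 0 were lower (2 at an unadjusted p under 0.05), with a median of 0.11. The remaining listed marker, Hbb-b1, is named Hbb-bt in the RefSeq table and so was left out. Its probe differed by −0.55 and did not pass (limma adjusted p = 0.0718). The beta globin genes Hbb-b2 and Hbb-bs, not on the list, fell by 0.59 and 0.54 on the log2 scale (limma adjusted p = 0.0381 and 0.0473). These falls and the marker sums are given under this 1 scaling and depend on it. With scaling to the array median or to spike-in controls, all genes shift upward alike. Then 4.27% and 0.823% of all genes were lower by limma, against 13.2% here. For the 5 of 6 megakaryocyte markers tested, 2 higher and 1 lower, the sum was 113 to 142 with Foxo3 siRNA, against 173 to 180 with nontargeting siRNA. Itgb3 had the largest signal in that sum and fell by 0.80 on the log2 scale (limma adjusted p = 0.00488). Itga2b and Gp1ba rose by 1.26 and 0.59 (limma adjusted p = 0.00183 and 0.0229). Gp9 at −0.55 and Pf4 at −0.16 did not pass. Of the 6 listed markers each, 3 lymphoid and 3 myeloid ones were tested, with 0 called by limma. At an unadjusted p under 0.05, 1 of each type was lower. Over all 19208 genes tested, 13% were higher and 13.2% lower by limma, and 4873 were lower at that unadjusted p. The 2 stromal markers with a kept probe, Col1a2 and Pecam1, were above background on 2 of 3 Foxo3 siRNA arrays and all 3 nontargeting arrays. They were kept through the group in which they read higher, so their −0.43 and −0.27 are descriptions with no test. The part of these cell markers in the results below was not tested, and in bulk RNA fewer cells of a type and less RNA per cell cannot be told apart.

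The opening 30 bases of the array probe with the smallest adjusted p in each class of these genes are printed here, since the results turn on these probes. For the Sm class the probe of Snrpf stands in for that of Snrpd1. Each is written 5′ to 3′ from the array files, with the position of the whole probe on mouse build mm9. Prpf18 was lower with Foxo3 siRNA and the other 6 were higher. The 3 probes of Srsf1 follow because they differed in call, the brightest not passing and both downstream probes being higher.
Snrpf, chr10:93046202-93046261, minus strand: tctacatcagaggcgttgaagaagaagagg
Snrpa, chr7:27972091-27972150, minus strand: agggaccttctcagagccgtgtgtgtgtgg
Sf3a1, chr11:4080333-4080392, plus strand: ccacaggacagtttcacactatcgagtgat
Lsm5, chr6:56651205-56651264, minus strand: ggcctgaagtatgaatggatttcctcgact
Lsm11, chr11:45747465-45747524, minus strand: tatttgatcggctgaaacttcaagattcct
Prpf18, chr2:4543273-4543332, minus strand: actcctgggatatgtaggaagatgaccttt
Srsf3, chr17:29173333-29173392, plus strand: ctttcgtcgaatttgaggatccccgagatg
Srsf1, brightest probe, chr11:87864550-87864609, plus strand: ataggatagggaggatgaattaccaggatt
Srsf1, nearer downstream probe, chr11:87867017-87867076, plus strand: ccagagtagatgcctttattgtgtaatttg
Srsf1, farther downstream probe, chr11:87867099-87867158, plus strand: gtgataagatcttcatgtaaagtctgaaca

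With Foxo3 siRNA, 20 of the 58 splicing factor genes tested were higher (34.5%), 2 were lower (3.45%) and 36 did not pass limma's adjusted p of 0.05. The 20 include Lsm11 and Lsm12, LSM genes that serve other particles. A gene was read by its brightest kept probe, and a probe was kept when every array of either group, or of both, read it well above background. That held for 92 of the 98 probes. Both probes of Srsf12 were too dim, so this SR gene was not tested. Over all 19208 genes tested, 13% were higher and 13.2% lower. Of these splicing factor genes, 57 of 58 were above background on all 6 arrays, and among the 13491 genes of the whole array for which that held, 17.6% were higher and 12.4% lower.

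The median log2 fold change of the 58 genes was 0.30, against −0.16 over all genes tested and −0.01 over those above background on all 6 arrays. Single genes lay between −0.74 and 1.25, and 43 of 58 were above 0. In 35 of the 58 genes all 3 Foxo3 siRNA arrays read higher than all 3 nontargeting arrays, and in 4 all read lower. Over all genes, 22.7% had groups apart in the higher direction and 28.5% in the lower, and among genes above background on all 6 arrays these shares were 30.6% and 25.9%.

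All 6 arrays lay on 1 slide, with Foxo3 siRNA replicate 1 in row 1 beside the 3 nontargeting arrays and Foxo3 siRNA replicates 2 and 3 in row 2. With the slide row as a block in limma, 4 of the 58 genes (6.90%) remained higher and 0 were lower, against 4.53% higher and 2.75% lower over all genes in the same fit, with 20 higher and 2 lower at an unadjusted p under 0.05, and the median was 0.27. The 4 were Srsf3, Lsm5, Lsm11 and Snrpg. Within row 1, 1 array against 3, the median was also 0.27, against −0.07 for all genes, and limma called 0 of the 58, against 1.76% higher and 0.805% lower over all genes, with 18 higher and 1 lower at an unadjusted p under 0.05. With any 1 array left out, 8 to 14 of the genes were higher (13.8% to 24.1%), against 5.83% to 11% of all genes. The count was 12 without Foxo3 siRNA replicate 2 (against 7.75% of all genes), 13 without the dim Foxo3 siRNA replicate 3 (7.96%), 12 without nontargeting siRNA replicate 1 (7.69%) and 8 without nontargeting siRNA replicate 2 (5.83%). It was 14 without Foxo3 siRNA replicate 1 (11%) and 14 without nontargeting siRNA replicate 3 (8.1%). Lsm2, Lsm5, Lsm11, Sf3a1, Sf3b1, Snrpa, Snrpd1 and Srsf3 passed in each of the 6 such fits. In the authors' deposited table, which is based on the same arrays, 2 of the genes were past an adjusted p of 0.05, Srsf3 and Lsm5, both higher. That is 3.45% of the 58 genes, near the 3.09% of all genes higher in the same table. In it 56 of 58 fold changes had the same sign as here.

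**Figure D1:**
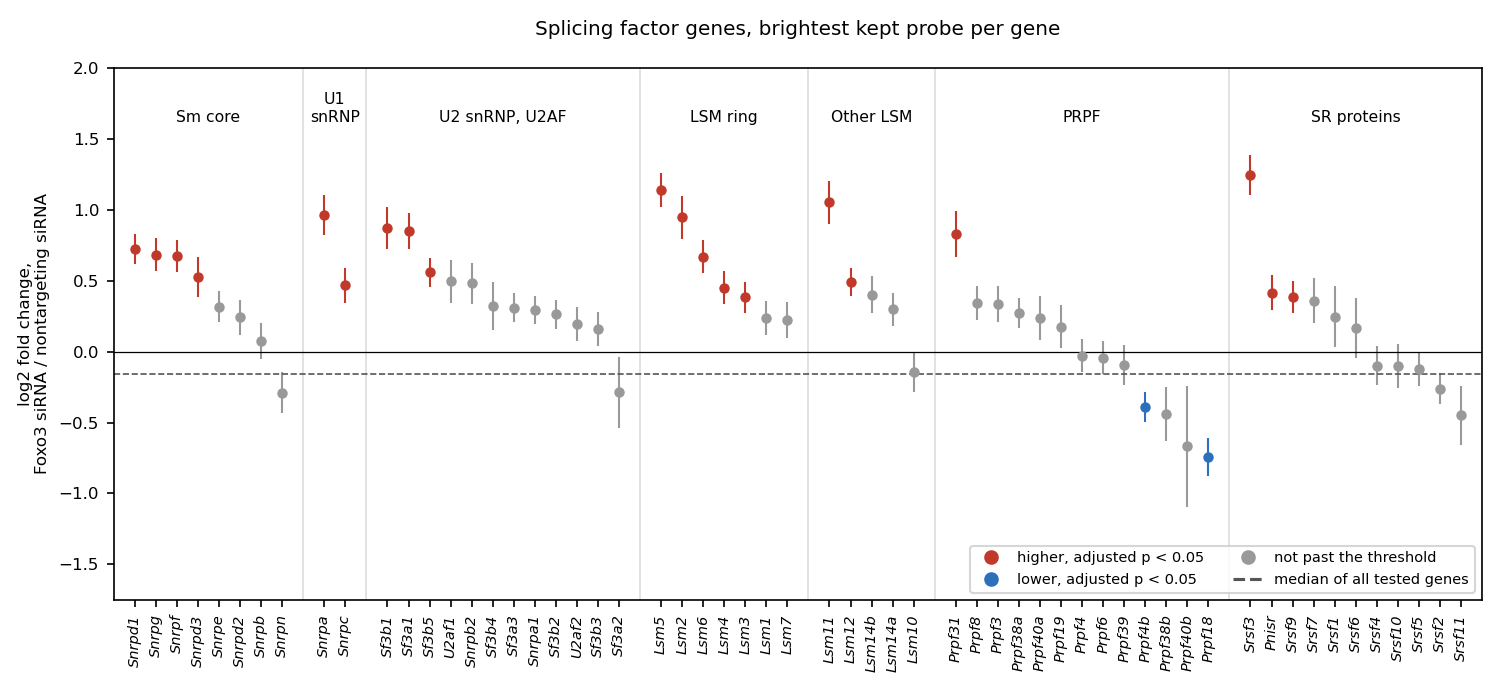
Log2 fold change (Foxo3 siRNA over nontargeting siRNA, 3 arrays each) of the brightest kept probe of 58 splicing factor genes, grouped by role, with bars of 1 standard error. Red points are higher and blue points lower at a limma adjusted p under 0.05, grey points did not pass, and the dashed line is the median of all genes tested, −0.16. The 5 called genes of the LSM ring lie at 0.38 to 1.14, and the 2 called lower are Prpf18 and Prpf4b.

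Sm proteins form the ring that sits on the U1, U2, U4 and U5 RNAs. Of the 8 Sm genes, 4 were higher (50%), 0 were lower and 4 did not pass limma's test, with a median of 0.42. All 8 were above background on all 6 arrays, and over the 13491 such genes 17.6% were higher and 12.4% lower. At an unadjusted p under 0.05, 5 of the 8 were higher and 0 lower, against 3356 and 2949 of those 13491 genes. Snrpd1 read 4.20, 4.29 and 4.33 with Foxo3 siRNA, against 3.50, 3.52 and 3.64 with nontargeting siRNA. Every Foxo3 siRNA array lay above every nontargeting array, and the difference was 0.72 (SE 0.106, limma adjusted p = 0.00614). A further Snrpd1 probe differed by 1.04 (SE 0.0996, limma adjusted p = 0.00186). Snrpg read 6.73, 6.47 and 6.50 with Foxo3 siRNA, against 5.84, 5.89 and 5.93 with nontargeting siRNA. The groups did not overlap, and the gene rose by 0.68 (SE 0.117, limma adjusted p = 0.00990), with 0.61 on its other probe. Snrpf read 3.09, 3.10 and 2.93 with Foxo3 siRNA, against 2.29, 2.33 and 2.48 with nontargeting siRNA, again with no overlap. It rose by 0.67 (SE 0.113, limma adjusted p = 0.00931). Snrpd3 read 3.78, 3.60 and 3.66 with Foxo3 siRNA, against 3.02, 3.06 and 3.38 with nontargeting siRNA, and rose by 0.53 (SE 0.138, limma adjusted p = 0.0363). Without nontargeting siRNA replicate 2 the Snrpg and Snrpf calls were lost (limma adjusted p = 0.0535 and 0.0538). Snrpd3 kept its call only without nontargeting siRNA replicate 3 (limma adjusted p = 0.0351), and had an adjusted p of 0.0764 to 0.124 without any other array.

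The Sm genes that did not pass were Snrpe at 0.32, Snrpd2 at 0.24, Snrpb at 0.07 and Snrpn at −0.29. Snrpb and its close relative Snrpn encode near-identical proteins that take the same place in the ring, and both had arrays that overlapped between groups. The 2 kept Snrpn probes differed by −0.29 and −0.25, and the 3 Snrpd2 probes by 0.20 to 0.30. The array design lists further predicted transcripts for some Sm probes, those of Snrpd1, Snrpd2 and Snrpg among them, so signal from near-identical copies cannot be separated from that of the named gene.

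Both U1-specific genes taken by the name rule were higher by limma, against 17.6% of all genes above background on all 6 arrays. Snrpa encodes protein A of this snRNP, which binds a stem-loop of U1 RNA, and read 2.85, 3.16 and 2.94 with Foxo3 siRNA, against 1.93, 2.20 and 1.92 with nontargeting siRNA. The groups were far apart, with a difference of 0.96 (SE 0.140, limma adjusted p = 0.00586). Snrpc encodes protein C, which helps U1 pair with the start of the intron. It read 3.63, 3.72 and 3.68 with Foxo3 siRNA, against 3.25, 3.03 and 3.35 with nontargeting siRNA, a rise of 0.47 (SE 0.123, limma adjusted p = 0.0367). The Snrpc call was lost in each of the 6 fits that left out 1 array, with values of 0.38 to 0.54 and limma adjusted p of 0.0530 to 0.120. Another U1 gene, Snrnp70, which the name rule did not take, differed by −0.07 and was not called.

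Among the 12 genes of the U2 snRNP and U2AF, 3 were higher (25%) and 0 lower by limma. All 12 were above background on all 6 arrays, and over the 13491 such genes 17.6% were higher and 12.4% lower. At an unadjusted p under 0.05, 8 of the 12 were higher and 0 lower, against 3356 and 2949 of those 13491 genes. The median of the 12 was 0.31. In 9 of the 12 the Foxo3 siRNA arrays all lay above the nontargeting arrays (75%, against 30.6% of the 13491 genes). Sf3b1, the SF3b subunit that holds the branch point, read 1.98, 1.97 and 1.64 with Foxo3 siRNA, against 0.86, 1.15 and 0.96 with nontargeting siRNA. It rose by 0.87 (SE 0.147, limma adjusted p = 0.00932). Sf3a1, a subunit of the SF3a complex of U2, read 3.43, 3.63 and 3.72 with Foxo3 siRNA, against 2.64, 2.76 and 2.83 with nontargeting siRNA. The rise was 0.85 (SE 0.125, limma adjusted p = 0.00628). Sf3b5, a small SF3b subunit, read 6.31, 6.20 and 6.27 with Foxo3 siRNA, against 5.70, 5.73 and 5.67 with nontargeting siRNA. That was a rise of 0.56 (SE 0.100, limma adjusted p = 0.0114), and its other probe rose by 0.49. Without nontargeting siRNA replicate 2 Sf3b5 had a limma adjusted p of 0.0560.

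Of the other U2 and U2AF genes, U2af1, which reads the end of the intron, and Snrpb2, which encodes U2B″, missed the threshold narrowly. U2af1 differed by 0.49 (limma adjusted p = 0.0566) and Snrpb2 by 0.48 (limma adjusted p = 0.0541). Sf3b4, Sf3a3, Snrpa1, Sf3b2, U2af2 and Sf3b3 lay between 0.16 and 0.32. Sf3a2 was the exception in sign at −0.29, with nontargeting arrays spread from 5.67 to 6.60 and Foxo3 siRNA arrays from 5.61 to 5.93.

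LSM proteins form rings like those of the Sm proteins. The ring of Lsm2 to Lsm8 binds U6 RNA in the nucleus, and the ring in which Lsm1 takes the place of Lsm8 acts in the cytoplasm on mRNA decapping. Of the 7 ring genes measured here, 5 were higher (71.4%) and 0 lower by limma, with the same counts at an unadjusted p under 0.05. All 7 were above background on all 6 arrays, and over all such genes 17.6% were higher and 12.4% lower. The median of the 7 was 0.45. In all 7 the Foxo3 siRNA arrays lay above the nontargeting arrays, against 30.6% of all genes above background on all 6 arrays. Lsm5 read 1.80, 1.92 and 1.68 with Foxo3 siRNA, against 0.72, 0.56 and 0.70 with nontargeting siRNA. Its lowest Foxo3 siRNA array was well above its highest nontargeting array, and the gene rose by 1.14 (SE 0.118, limma adjusted p = 0.00232), with 1.19 on another probe. Lsm2 read 2.83, 3.18 and 3.15 with Foxo3 siRNA, against 1.93, 2.14 and 2.26 with nontargeting siRNA, a rise of 0.95 (SE 0.151, limma adjusted p = 0.00788).

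Lsm6 had 4 kept probes, and all 4 rose. The brightest read 5.74, 5.70 and 5.79 with Foxo3 siRNA, against 4.96, 5.02 and 5.24 with nontargeting siRNA, a difference of 0.67 (SE 0.118, limma adjusted p = 0.0107). The others differed by 0.67, 0.72 and 0.99. Without nontargeting siRNA replicate 2 the brightest probe had a limma adjusted p of 0.0589. Lsm4 rose by 0.45 (limma adjusted p = 0.0352) and Lsm3 by 0.38 (limma adjusted p = 0.0448). Both of these calls were lost in each of the 6 fits without 1 array, with a limma adjusted p of 0.0578 to 0.107 for Lsm4 and 0.0751 to 0.135 for Lsm3. Lsm1, the member of the cytoplasmic ring alone, differed by 0.23 and Lsm7 by 0.22, and neither passed. Lsm8, the member of the nuclear ring alone, is listed on the array as Naa38 and differed by 0.30.

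The other LSM genes serve other particles. Lsm10 and Lsm11 belong to the U7 snRNP, which processes the ends of histone mRNAs. Lsm11 read −0.70, −0.85 and −1.11 with Foxo3 siRNA, against −2.05, −1.99 and −1.78 with nontargeting siRNA. It rose by 1.05 (SE 0.149, limma adjusted p = 0.00552), whereas its partner Lsm10 differed by −0.15 with overlapping arrays (limma adjusted p = 0.435). The 2 genes were not tested against each other. Lsm12 rose by 0.49, reading 2.09, 2.10 and 2.06 with Foxo3 siRNA, against 1.53, 1.64 and 1.61 with nontargeting siRNA (SE 0.0996, limma adjusted p = 0.0169). It kept its call only without Foxo3 siRNA replicate 1 (limma adjusted p = 0.0366), and had an adjusted p of 0.0513 to 0.0672 without any other array. Lsm14b and Lsm14a act in the storage and silencing of mRNA. Lsm14b read 1.75, 1.57 and 1.45 with Foxo3 siRNA, against 1.33, 1.12 and 1.11 with nontargeting siRNA, with no overlap, and its difference of 0.40 did not pass (limma adjusted p = 0.0663). Lsm14a differed by 0.30 and did not pass.

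**Figure D2:**
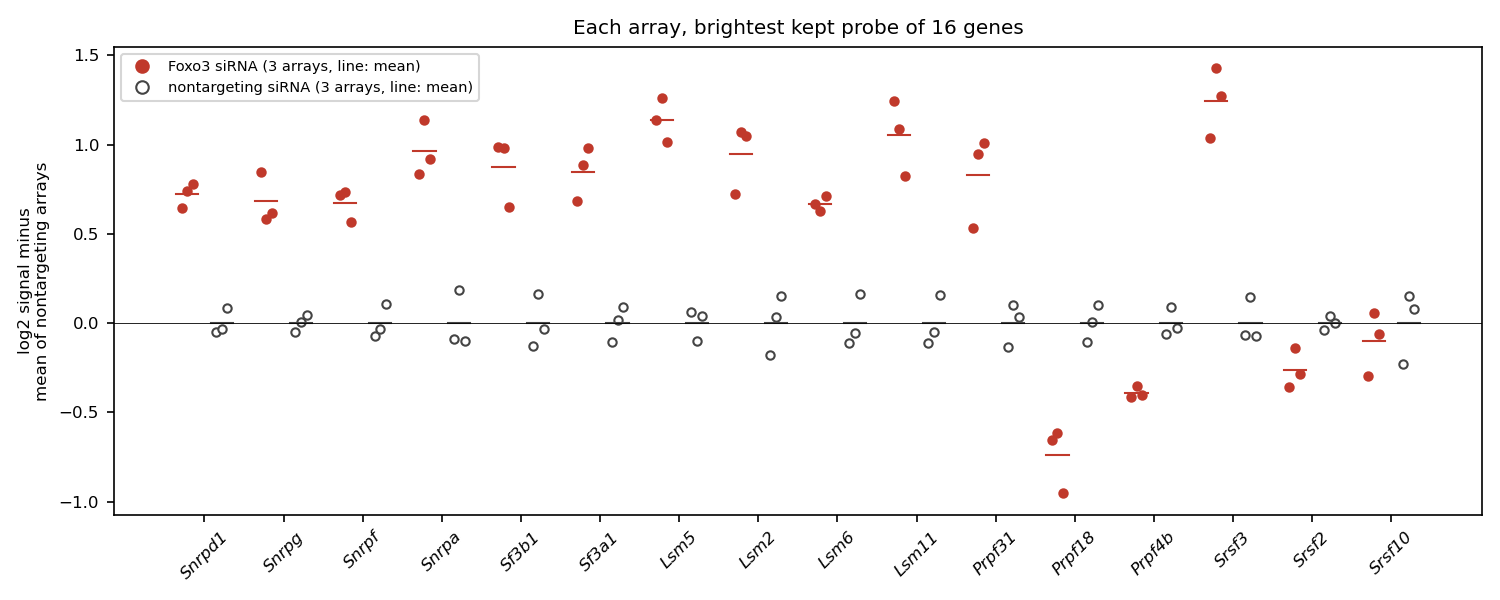
Log2 signal on each array, minus the mean of the 3 nontargeting arrays, for the brightest kept probe of 16 splicing factor genes, with Foxo3 siRNA in filled red and nontargeting siRNA in open circles, and a line at each mean. From Snrpd1 to Prpf31 and in Srsf3 the Foxo3 siRNA arrays all lie above the nontargeting arrays, in Prpf18, Prpf4b and Srsf2 all lie below, and in Srsf10 the groups overlap.

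The PRPF genes, named after yeast pre-mRNA processing mutants, act at several stages of the cycle. Of 13 tested, 1 was higher (7.69%), 2 were lower (15.4%) and 10 did not pass limma's test, against 13% higher and 13.2% lower over all genes. Their median was −0.03, against −0.16 over all genes. Of the 13, 12 were above background on all 6 arrays. Over all such genes 17.6% were higher and 12.4% lower, and the median was −0.01. Prpf31, a protein that joins the U4 and U6 particle to U5 and is mutated in a form of human retinitis pigmentosa, read 4.22, 4.63 and 4.70 with Foxo3 siRNA, against 3.55, 3.79 and 3.72 with nontargeting siRNA. It rose by 0.83 (SE 0.161, limma adjusted p = 0.0145). A dim Prpf31 probe designed on another transcript, above background on 2 of 3 Foxo3 siRNA arrays, lay 4141 bases upstream on the genome and differed by −0.13. The Prpf31 call was lost without Foxo3 siRNA replicate 2 or 3 and without nontargeting siRNA replicate 1 or 2, at 0.74 to 0.88 and a limma adjusted p of 0.0514 to 0.0547.

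Prpf18, which acts in the later of the splicing steps, read 2.88, 2.91 and 2.58 with Foxo3 siRNA, against 3.43, 3.54 and 3.63 with nontargeting siRNA. All Foxo3 siRNA arrays were lower, and the gene fell by 0.74 on the log2 scale (SE 0.135, limma adjusted p = 0.0120). Prpf4b, a kinase of the spliceosome, read 0.84, 0.91 and 0.86 with Foxo3 siRNA, against 1.20, 1.35 and 1.23 with nontargeting siRNA. It fell by 0.39 on the log2 scale (SE 0.104, limma adjusted p = 0.0379), while a probe 2948 bases downstream differed by −0.04. Neither call held with scaling to the array median, where the values were −0.43 and −0.078. Prpf4b also lost its call in each of the 6 fits without 1 array, at −0.42 to −0.34 and a limma adjusted p of 0.0689 to 0.134. Prpf18 lost its call without nontargeting siRNA replicate 2 (limma adjusted p = 0.0591).

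The other PRPF genes were not called. Prpf8, the protein at the heart of the catalytic centre, differed by 0.34 (limma adjusted p = 0.0748) and Prpf3 by 0.34 (limma adjusted p = 0.0924), in both with all Foxo3 siRNA arrays above all nontargeting arrays. Prpf6 and Prpf4, which like Prpf3 belong to the U4, U5 and U6 particle, lay at −0.04 and −0.03. Prpf38b differed by −0.44 on its brightest probe and by 0.28 on another. Prpf40b differed by −0.67 with a standard error of 0.428, on arrays that overlapped.

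Of the 12 SR genes, 11 were tested. By limma 3 of them were higher (27.3%) and 0 lower, with the same counts at an unadjusted p under 0.05. All 11 were above background on all 6 arrays, and over all such genes 17.6% were higher and 12.4% lower. The median of the 11 was 0.17. In 3 of the 11 the Foxo3 siRNA arrays all lay above the nontargeting arrays (27.3%, near the 30.6% of all such genes). Srsf3, which acts in splicing and in the export of mRNA, rose most. The probe printed above read 3.98, 4.37 and 4.21 with Foxo3 siRNA, against 2.87, 3.08 and 2.86 with nontargeting siRNA. The lowest Foxo3 siRNA array was clearly above the highest nontargeting array, and the difference was 1.25 (SE 0.142, limma adjusted p = 0.00303), a 2.37-fold level. Probes 5152 and 6860 bases downstream on the genome differed by 1.18 and 1.22 (limma adjusted p = 0.00401 and 0.00404).

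Srsf9 rose by 0.38, reading 4.57, 4.76 and 4.71 with Foxo3 siRNA, against 4.23, 4.39 and 4.28 with nontargeting siRNA (SE 0.112, limma adjusted p = 0.0491). Pnisr, an SR-like protein listed on the array by its older name Sfrs18, rose by 0.42 (SE 0.121, limma adjusted p = 0.0486). It read 3.30, 3.37 and 3.48 with Foxo3 siRNA, against 2.82, 2.98 and 3.10 with nontargeting siRNA. Both calls were close to the threshold and were lost in each of the 6 fits without 1 array, with a limma adjusted p of 0.0512 to 0.134 for Srsf9 and 0.0660 to 0.143 for Pnisr. The other Pnisr probe, 4842 bases upstream, differed the other way, by −0.49 (limma adjusted p = 0.0876), and the mean of the 2 probes differed by −0.038.

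SR genes make several transcript forms, some of which carry an early stop codon and are degraded, and separate probes of a gene can read different forms. Among the splicing factor genes, 22 had more than 1 kept probe above background on all 6 arrays, and in 3 of these, Srsf1, Pnisr and Prpf4b, the probes differed in call. Which transcript form each probe reads was not established here.

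Srsf1, a founding member of the family, read 3.71, 3.91 and 3.78 on its brightest probe with Foxo3 siRNA, against 3.14, 3.57 and 3.96 with nontargeting siRNA, with overlapping groups and a difference of 0.24 (limma adjusted p = 0.396). Its probes 2549 and 2467 bases downstream were both called. The one farther down read 3.12, 3.02 and 3.06 with Foxo3 siRNA, against 2.50, 2.61 and 2.64 with nontargeting siRNA, a rise of 0.49 (SE 0.104, limma adjusted p = 0.0199). The other rose by 0.54 (SE 0.133, limma adjusted p = 0.0302).

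Srsf2 is also known as SC35. Its brightest probe read 2.66, 2.87 and 2.73 with Foxo3 siRNA, against 2.97, 3.06 and 3.02 with nontargeting siRNA. These arrays were all lower with Foxo3 siRNA, but the difference of −0.26 did not pass (SE 0.110, limma adjusted p = 0.117), and it was 0.048 with scaling to the array median. The probe 579 bases downstream, designed on another transcript, read −2.70, −2.26 and −2.83 with Foxo3 siRNA, against −1.66, −1.68 and −1.15 with nontargeting siRNA. It was above background on 2 of 3 Foxo3 siRNA arrays and on all 3 nontargeting arrays, so it was kept through the group in which it read higher, and its difference of −1.10 is given as a description with no test. The third probe, 1391 bases downstream, differed by 0.25 with overlapping arrays (limma adjusted p = 0.394).

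Srsf10, which can repress splicing, differed by −0.10 on its brightest probe and by 0.02 on another, both with overlapping arrays. The probe farthest upstream, designed on a separate RefSeq transcript, read −2.23, −2.09 and −2.36 with Foxo3 siRNA, against −1.34, −1.58 and −1.37 with nontargeting siRNA. It too was kept through the nontargeting arrays, since 1 Foxo3 siRNA array did not exceed background there, and the −0.79 between the group means is likewise a description. The 3 probes of Srsf11 lay at −0.45, −0.68 and −0.15, and none passed alone. When the kept probes of each gene were averaged before the fit, limma called Srsf11 lower. Srsf7 at 0.36, Srsf6 at 0.17, Srsf4 at −0.10 and Srsf5 at −0.13 were not called either.

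**Figure D3:**
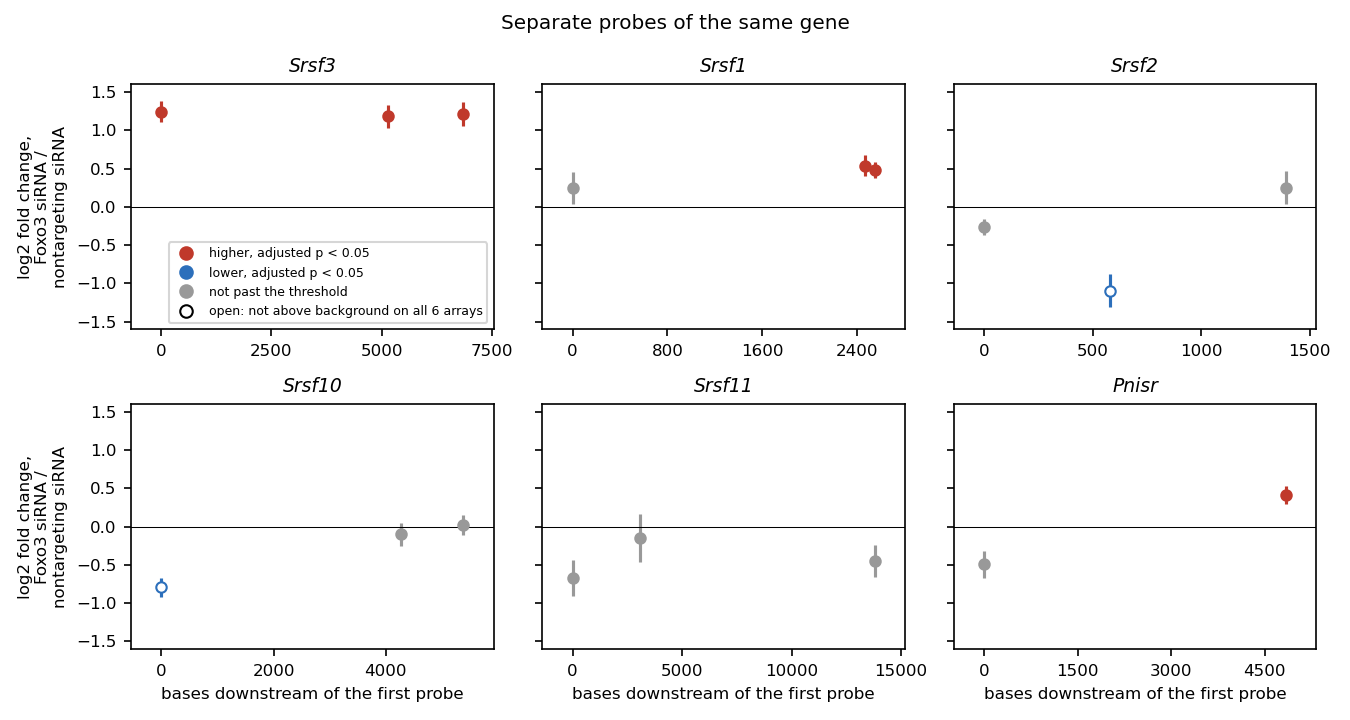
Log2 fold change (Foxo3 siRNA over nontargeting siRNA) of each kept probe of 6 SR genes against its distance in bases, along the genome, from the probe farthest upstream, with bars of 1 standard error. Red is higher, blue lower and grey not past a limma adjusted p of 0.05, and open points mark probes that were not above background on all 6 arrays. The open blue points of Srsf2 and Srsf10 were kept through the nontargeting arrays, where they read higher. Their colour is therefore not read as a test result. The 3 Srsf3 probes lie at 1.18 to 1.25, whereas those of Srsf2 range from −1.10 to 0.25 and those of Srsf10 from −0.79 to 0.02.

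Genes that work with the spliceosome but fall outside the name rule were counted from lists. The lists were chosen with earlier results of these data known, so their shares are descriptions. Of 46 other spliceosome proteins, 6 were higher (13.0%, as over all genes) and 3 lower (6.52%, against 13.2% over all genes), with a median of 0.11. Of the 46, 45 were above background on all 6 arrays, and over all such genes 17.6% were higher and 12.4% lower. Snw1, a factor of the catalytic spliceosome, fell by 1.01 on the log2 scale (SE 0.119, limma adjusted p = 0.00331), Ppih rose by 0.86 (limma adjusted p = 0.00847), and Snrnp40 rose by 0.61 (limma adjusted p = 0.0124). Of 16 genes that assemble snRNPs and bring them into the nucleus, 4 were higher (25%) and 1 lower (6.25%), with a median of 0.44. Over all genes 13% were higher and 13.2% lower, and 17.6% and 12.4% of those above background on all 6 arrays. Snupn, the import adaptor of snRNPs, read 1.37, 1.50 and 1.41 with Foxo3 siRNA, against 0.35, 0.62 and 0.57 with nontargeting siRNA, a rise of 0.91 (SE 0.119, limma adjusted p = 0.00431). Prmt5, which methylates Sm proteins, rose by 0.85 (limma adjusted p = 0.0155) and Ddx20 by 0.55 (limma adjusted p = 0.0174). Of 10 minor spliceosome genes, 2 were higher (20%), Snrnp25 at 0.69 and Zmat5 at 0.65. That share was near the 17.6% of all genes above background on all 6 arrays, as these 10 were. Limma called 0 of the 10 lower, also at an unadjusted p under 0.05, against 12.4% called lower among those genes.

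Of 8 kinases and carriers of SR proteins tested, 2 were lower (25%) and 0 higher by limma, with the same counts at an unadjusted p under 0.05. Over all genes above background on all 6 arrays, as these 8 were, 12.4% were lower and 17.6% higher. Clk1, which phosphorylates SR proteins, read 4.44, 3.96 and 4.41 with Foxo3 siRNA, against 5.07, 5.42 and 5.57 with nontargeting siRNA. The groups did not overlap, and the gene fell by 1.08 on the log2 scale (SE 0.193, limma adjusted p = 0.0112). Its relative Clk4 fell by 0.59 on the log2 scale (limma adjusted p = 0.0402). Of 18 SR-related factors, 2 were higher (11.1%, against 13% of all genes), Pnn at 0.70 and Scaf11 at 0.43. Another, Srrm2 at −0.46, was lower (5.56%, against 13.2%), although another Srrm2 probe differed by 0.09. Of the 18, 15 were above background on all 6 arrays, and over all such genes 17.6% were higher and 12.4% lower.

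**Figure D4:**
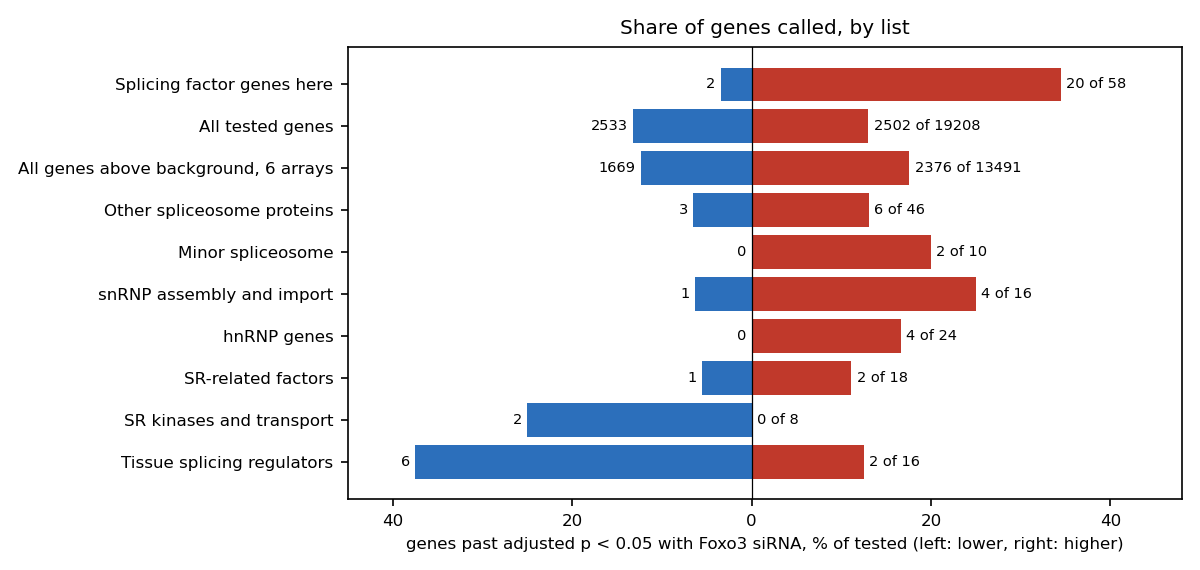
Share of genes past a limma adjusted p of 0.05 with Foxo3 siRNA, as a percentage of those tested, with genes called lower to the left and higher to the right, and counts at the bar ends. The splicing factor genes had 20 of 58 higher and 2 lower, all genes tested had 13% higher and 13.2% lower, and the tissue splicing regulators had 6 of 16 lower.

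Promoter sequences were matched to 48 of the splicing factor genes in the RefSeq table of build GRCm38.p6, which gives 250 bases before and 50 after each start. The FOXO motif GTAAACA, searched on both strands, was in 3 of the 48 (6.25%), near the 4.05% of 27025 genes. The 3 were Lsm6, Snrpf and Srsf6. The GATA motif AGATAA was in 3 (6.25%, against 12.7%) and the ETS motif CCGGAAG in 18 (37.5%, against 9.93%). None of these motifs contains another. Lsm6 and Snrpf were picked for print because both were higher with Foxo3 siRNA. The 250 bases before their starts are given with the FOXO match in capitals. Srsf6, which differed by 0.17 and was not called, has its match at base −188 and is not printed. A match describes these letters and does not show binding.
Lsm6, GRCm38.p6, chr8:78821153-78821402, minus strand: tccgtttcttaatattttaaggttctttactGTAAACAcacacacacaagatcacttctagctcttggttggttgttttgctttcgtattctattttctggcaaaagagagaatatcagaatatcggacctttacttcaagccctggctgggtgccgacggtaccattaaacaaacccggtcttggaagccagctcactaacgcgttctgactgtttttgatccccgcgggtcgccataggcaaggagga
Snrpf, GRCm38.p6, chr10:93589659-93589908, minus strand: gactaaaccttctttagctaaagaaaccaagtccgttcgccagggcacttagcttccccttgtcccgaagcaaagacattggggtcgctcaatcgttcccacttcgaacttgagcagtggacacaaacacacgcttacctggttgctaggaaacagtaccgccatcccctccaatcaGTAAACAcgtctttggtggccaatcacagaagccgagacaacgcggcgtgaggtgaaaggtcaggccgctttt
The match begins at base −219 from the start in Lsm6 and at base −73 in Snrpf.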

How the data were processed

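Scanner files hold a background-subtracted spot intensity from Agilent Feature Extraction 10.7.3.1, per the file headers, with surrogates where a signal did not exceed background. The headers name no scaling across arrays for that deposited intensity. The authors' deposited log2 fold change and its p-value, raw or adjusted, come from limma, per the submitters' processing notes, and their normalization is not given in the sources used here.

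From the 62976 spots of each array, 3671 control spots and outlier flags were left out. The processed intensity was taken to log2, each array's 75th percentile subtracted, and spots of 1 probe averaged. Kept probes (26985) were compared with limma 3.58.1 in R 4.3.3 (lmFit and eBayes, two-sided, no covariates), with Benjamini-Hochberg adjustment over all of them. The script was tested on simulated data. Symbols follow the mouse RefSeq table: 27325 probes matched by accession, 3523 by symbol, 551 by synonym and 24282 not at all.

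Members and lists were chosen with earlier results of these data known. Values per array were given for the 3 genes with the smallest adjusted p and the 2 largest called changes per class, genes whose probes differed in call, and up to 3 genes per outside list. The genes taken from other lists beyond that were chosen after their values were seen. Alternatives covered scaling, background correction, the filter, probe choice, slide row, replicate block, single arrays left out and the authors' table.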

Additional observations from a re-analysis of the deposited data

How the results depend on the processing

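Under the main setting 6900 probes were called, with 22 splicing factor genes (20 higher, 2 lower), a median of 0.30 and a Foxo3 difference of −2.42. Quantile normalization, normexp, the stricter filter, and fitting or averaging per gene kept every count within 1.5 times. Scaling to the array median gave 20 higher, against 15.5% of all genes, and 0 lower (0 lower also at an unadjusted p under 0.05) and a median of 0.61, against 0.16 for all genes. With it 77.2% of all calls were higher, against 47.6% in the main fit. Spike-in scaling called 1271 probes and 3 genes (3 higher, 5.17%, against 4.11% of all genes, and 0 lower, with 14 and 0 at an unadjusted p under 0.05), with a median of 0.69, against 0.23 for all genes, and 82.1% of calls higher. The 58 genes' median exceeded that of all genes by 0.46 under these scalings and the main one, since a scaling shifts all genes alike. Without a filter on dim probes, limma called 635 probes and 0 splicing factor genes (0 higher, against 0.936% of all genes, 0 lower, with 22 and 2 at an unadjusted p under 0.05), and Foxo3 had an adjusted p of 0.0616 at −2.42. The slide row block gave 1892 probes and 4 genes (4 higher, 0 lower), and the row 1 arrays 752 probes and 0 genes (0 higher, 0 lower). The authors' deposited table had 1182 probes and 2 genes (2 higher, 0 lower, with 23 and 2 at an unadjusted p under 0.05). Leaving out single arrays gave 2708 to 6028 probes, 8 to 15 genes, 8 to 14 higher and 0 to 1 lower. The brightest Srsf10 and Srsf2 probes, called in no setting, turned to 0.21 and 0.048 with median scaling and 0.28 and 0.12 with spike-in scaling, and Pnisr to −0.038 when its probes were averaged. The causes were not tested.

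The same replicate numbers occur in both groups, but the correlations of same-numbered arrays' deviations were 0.164, −0.310 and 0.114, so the numbers were not taken to pair the samples. With the replicate block 6971 probes and 17 genes were called (16 higher, 1 lower). That is 27.6% higher, against 12.4% higher and 14.2% lower over all genes in the same fit. Srsf3 and Lsm5 lost their calls in 2 of 18 alternatives each, Srsf9 in 13 and Prpf4b in 14. Signal over background limits the 7 kept probes that were not above it on all 6 arrays, among them the lower Srsf2 and Srsf10 probes.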

Other observations

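Of 24 hnRNP genes, whose products coat pre-mRNA and often oppose SR proteins, 4 were higher (16.7%) and 0 lower by limma. The share higher was near the 17.6% of all genes above background on all 6 arrays, as these 24 were, and 12.4% of those genes were lower. At an unadjusted p under 0.05, 9 of the 24 were higher and 1 lower, against 3356 and 2949 of those 13491 genes. The median of the 24 was 0.18. Hnrnpa1 read 5.08, 5.01 and 4.71 with Foxo3 siRNA, against 3.71, 3.59 and 3.52 with nontargeting siRNA, a rise of 1.33 (SE 0.139, limma adjusted p = 0.00235), with 1.47 on its other probe. Hnrnpa0 rose by 0.90 (limma adjusted p = 0.00462), with 0.29 on another probe. Syncrip rose by 0.99 (limma adjusted p = 0.00912), although its other probe differed by 0.03.

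Of 16 tissue splicing regulators tested, 6 were lower (37.5%, against 13.2% of all genes) and 2 higher (12.5%, against 13%), with a median of −0.25, against −0.16 over all genes. Of the 16, 15 were above background on all 6 arrays. Over all such genes 12.4% were lower and 17.6% higher, and the median was −0.01. Mbnl3, a muscleblind protein, read 2.03, 2.09 and 1.85 with Foxo3 siRNA, against 0.88, 1.05 and 1.06 with nontargeting siRNA, a rise of 0.99 (SE 0.120, limma adjusted p = 0.00346). Its relative Mbnl2 fell by 0.72 on the log2 scale (limma adjusted p = 0.00742). Ptbp3, a polypyrimidine tract binding protein, read 4.26, 4.01 and 3.88 with Foxo3 siRNA, against 5.02, 5.10 and 5.29 with nontargeting siRNA. It fell by 1.09 on the log2 scale (SE 0.144, limma adjusted p = 0.00449). Of 4 exon junction complex genes tested, limma called 0, with 2 higher and 1 lower at an unadjusted p under 0.05. Of the 13491 genes above background on all 6 arrays, as these 4 were, 3356 were higher and 2949 lower at that unadjusted p.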
